A study of Homo sapiens with 6 samples.

Results

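PEG10 and other imprinted genes were followed in the cardiomyocyte libraries. The list held 10 genes: PEG10, SGCE, PEG3, H19, MEG3, DLK1, NNAT, MEST, CDKN1C and PLAGL1. By gene symbol 9 of the 10 were found among the 21134 genes of the table, and all 9 passed the filter on low counts that left 14926 genes for testing. PEG3 was not analysed here. PEG10 was chosen by its measured values, which were higher in the alcohol than in the control libraries, and SGCE for its place beside PEG10. The differences of PEG10 between groups are therefore given as a description, with no test.

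RNA sequencing covered 6 libraries of cardiomyocytes differentiated from the line H9, a human embryonic stem cell line that the labels and the study call hiPSC-CMs. The control group was left untreated (n = 2), the alcohol group received 100 mM alcohol for 24 h (n = 2), and the co-treated group received 100 mM alcohol and 1 μM losartan for 24 h (n = 2). Losartan is a blocker of the angiotensin II type 1 receptor. All libraries come from this 1 line, and a group with losartan alone was not analysed here. The sources used here do not say whether the libraries of a group came from separate cultures, so each p-value measures only the spread between these libraries, which may be technical. With 2 libraries against 2, an exact permutation test cannot give a two-sided p below 0.333, so tests rest on the edgeR fit across all genes.

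Imprinted genes are transcribed mainly from the maternal or mainly from the paternal copy, and the choice follows DNA methylation laid down in the germ line. They lie in clusters, are best known for roles in the growth of the fetus and the placenta, and many of them are silenced after birth in tissues such as the heart. PEG10, SGCE, PEG3, DLK1, NNAT, MEST and PLAGL1 are expressed from the paternal copy, and H19, MEG3 and CDKN1C from the maternal copy. The counts here do not separate the 2 copies, so every value below is the sum over both.

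The measure used for tests was the expected count, an estimated number of reads per gene. It summed to between 4898287 and 5051448 per library in a library, and a floor of 3 counts corresponds to 0.594 to 0.612 CPM (counts scaled to library size). FPKM, the the deposited level scaled to transcript length and library size, and was used to compare levels between genes. The cardiomyocyte markers were abundant in every library, with a summed FPKM of 18142 to 25507 over 11 genes, and none of the 11 was at 0. The lowest sum was that of alcohol replicate 2. The largest part of the sum came from MYL7, with group means of 15346 FPKM in control, 10966.6 with alcohol and 11043.5 with co-treatment. Against control, 6 of the 11 markers had a log2 fold change above 0 with alcohol and 5 below. With co-treatment 4 were above 0 and 7 below. In bulk RNA, fewer cells of a type and less RNA per cell cannot be told apart.

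PEG10 encodes a protein derived from the gag and pol genes of a retrotransposon. Its message carries a programmed shift of the reading frame, by which ribosomes read either a short gag-like protein or a longer gag-pol-like protein from the same RNA. The site is printed because the FPKM of PEG10 sums over transcripts annotated with either product. It lies in the coding sequence on the plus strand of chromosome 7, with the 60 bases shown spanning chr7:94664486-94664545 of GRCh38, as read from a GENCODE transcript of PEG10. Capitals mark the slippery heptamer and, 15 bases after it, the stop codon of the gag-like frame.
PEG10 frameshift site: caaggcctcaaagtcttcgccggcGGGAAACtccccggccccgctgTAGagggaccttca
In the annotation the coding sequence of this transcript ends at that stop codon and has a length of 975 bases. That of another PEG10 transcript extends past the stop codon and has a length of 2121 bases. Its annotated sequence lacks bases shown here just before the heptamer. The deposited values are per gene, so no value could be given for either frame.

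PEG10 (chromosome 7, 94656325 to 94669695, plus strand, GRCh38.p14) had 15.8 and 25.2 FPKM in the control libraries, 27.5 and 58.9 in the alcohol libraries, and 44.6 and 52.8 in the co-treated libraries. Both alcohol libraries and both co-treated libraries were higher than either control library, and the alcohol libraries lay on either side of the co-treated ones. The underlying expected counts were 536 and 851 in control, 930 and 1935 with alcohol, and 1462 and 1776 with co-treatment. The counting interval of the lower control library was 492 to 583 and that of the higher was 795 to 910 (95%, exact Poisson, counting error only), so the control libraries differed from each other by more than counting error. As a mean, PEG10 was at 20.5 ± 6.65 FPKM in control, 43.2 ± 22.2 with alcohol and 48.7 ± 5.79 with co-treatment (SD, n = 2 each).

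The fitted log2 difference of PEG10 between alcohol and control, which is the difference that chose the gene, was 1.02 with an SE of 0.27. Leaving out alcohol replicate 2 gave 0.43 and leaving out alcohol replicate 1 gave 1.46, so the size rested on which alcohol library was used. Between the co-treated and the alcohol libraries the log2 difference was 0.18 with an SE of 0.26. Leaving out alcohol replicate 1 gave -0.25 and leaving out alcohol replicate 2 gave 0.78.

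The co-treated cells also received alcohol, and co-treated against control uses the same control libraries that entered the choice of PEG10, so this difference too is given with no test. Its log2 size was 1.20 (SE 0.27), a 2.30-fold difference. Over the alternative tools, filters and left-out libraries it ran from 0.92 to 1.56 in log2, a description of the same libraries.

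**Figure D1:**
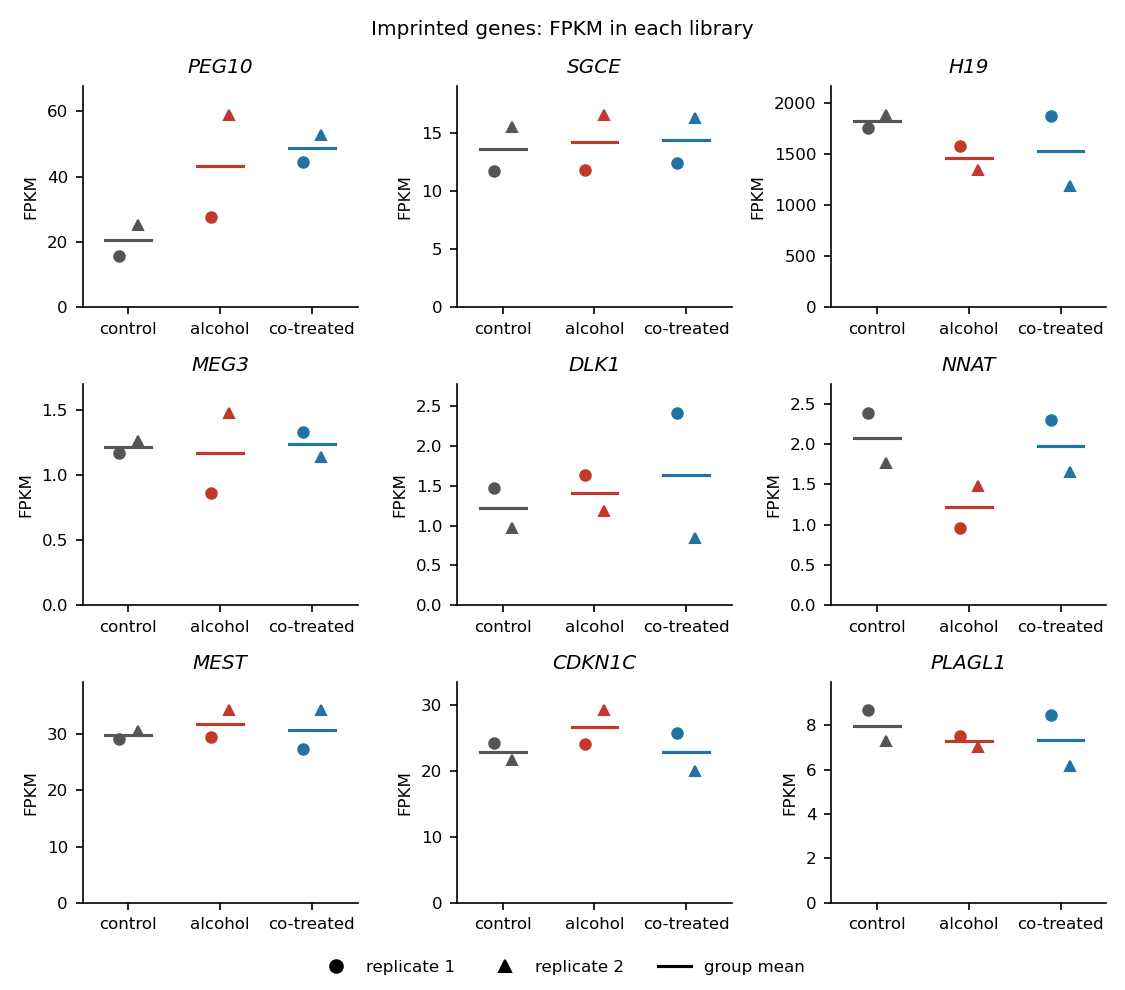
FPKM of the 9 imprinted genes in each library, one panel per gene with its own vertical axis from 0. Circles are replicate 1, triangles replicate 2 and bars the mean of a group; in PEG10 both control libraries (15.8 and 25.2) lie below the other 4, while in SGCE the 3 groups overlap.

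SGCE encodes epsilon-sarcoglycan, a membrane protein of the sarcoglycan family, and loss of its paternal copy causes myoclonus dystonia. It occupies chromosome 7 from 94584980 to 94656133 on the minus strand, and its start lies 192 bases from that of PEG10, with the pair transcribed away from each other. SGCE had 11.8 and 15.5 FPKM in control, 11.8 and 16.6 with alcohol, and 12.4 and 16.3 with co-treatment. The 3 groups overlapped, and replicate 2 was the higher library in each of them, by 1.32, 1.40 and 1.31 times. In log2 the difference was 0.03 for alcohol against control (95% interval -0.43 to 0.50) and 0.06 for co-treated against control (-0.40 to 0.52). Differences of up to about 1.41-fold and 1.44-fold upward thus stayed within these intervals. SGCE overlaps CASD1, which lies on the opposite strand, and the sources used here do not say whether counting used strand. Reads of the overlap can then not be told apart.

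The ratio of PEG10 to SGCE within a library does not depend on the scaling of that library. It was 1.35 and 1.63 in control, 2.32 and 3.56 with alcohol, and 3.58 and 3.24 with co-treatment. The control libraries were the lowest 2 of the 6, and the alcohol and co-treated libraries overlapped. PEG10 was chosen for its higher values with alcohol, and SGCE differed little between groups. The low ratio in control therefore follows from that choice and carries no test. Over the 6 libraries the log2 CPM of both genes gave a Pearson r of 0.59, a description over libraries that share the treatment groups.

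**Figure D2:**
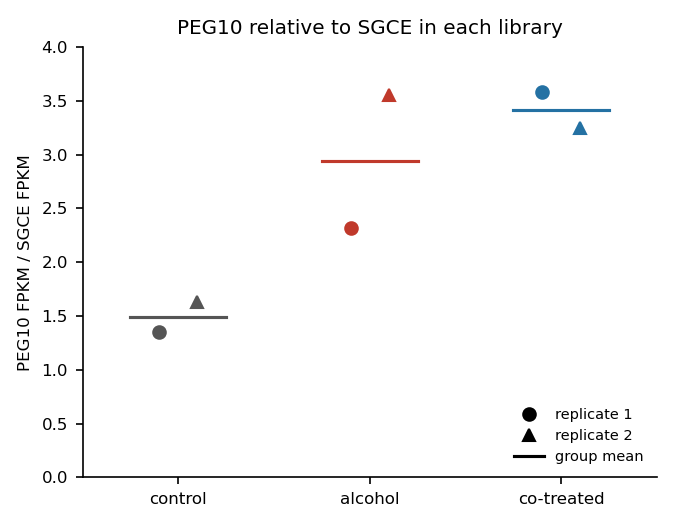
Ratio of PEG10 FPKM to SGCE FPKM in each library, on a vertical axis from 0. Circles are replicate 1, triangles replicate 2 and bars group means. The control libraries are at 1.35 and 1.63 and the other 4 lie between 2.32 and 3.58. The values of PEG10 chose the gene, so the ratio carries no test.

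Among the other imprinted genes of the list, H19 was by far the most abundant. In control, the levels in FPKM followed the order H19, MEST, CDKN1C, PEG10, SGCE, PLAGL1, NNAT, DLK1 and MEG3. The control libraries of CDKN1C and PEG10 overlapped, as did those of DLK1 and MEG3, so the order within these pairs was not beyond the spread. With alcohol and with co-treatment PEG10 came after H19 in mean FPKM. In alcohol replicate 1, however, PEG10 (27.5) lay below MEST (29.4), so its place with alcohol was not beyond the spread. In rank over all genes, H19 stood at 17 in control, 21 with alcohol and 20 with co-treatment. PEG10 stood at 3441, 1510 and 1306, and SGCE at 5061, 5038 and 4993.

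H19 is a noncoding RNA that shares enhancers with IGF2 on chromosome 11 and holds the microRNA MIR675. At 1995176 to 2001266 on the minus strand, it had 1755 and 1881 FPKM in control, 1574 and 1343 with alcohol, and 1871 and 1190 with co-treatment. Both alcohol libraries were below both control libraries, and of the co-treated libraries 1 lay between the control libraries and 1 below both alcohol libraries. The log2 fold change for alcohol against control was -0.35 (SE 0.19, adjusted p = 0.521 by edgeR), and for co-treated against control it was -0.30 (adjusted p = 0.552). IGF2, the fetal growth factor expressed from the opposite parental copy, had 194 and 181 FPKM in control, 212 and 161 with alcohol, and 244 and 173 with co-treatment. Its groups overlapped, with log2 fold changes of -0.06 and 0.09 against control.

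CDKN1C, an inhibitor of cyclin-dependent kinases encoded on chromosome 11 at 2883218 to 2885775, had 24.3 and 21.6 FPKM in control, 24.1 and 29.2 with alcohol, and 25.8 and 20.1 with co-treatment. Its groups overlapped in each comparison. Its log2 fold change was 0.19 for alcohol against control (95% interval -0.16 to 0.54) and -0.05 for co-treated against control (-0.40 to 0.31). KCNQ1OT1, the noncoding RNA of the same cluster that silences CDKN1C on the paternal copy, differed from control by log2 fold changes of -0.01 and 0.18, neither past the threshold.

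PLAGL1 encodes a zinc finger transcription factor that restrains the cell cycle and regulates other imprinted genes. It lies on chromosome 6 at 143940300 to 144064599 and had 8.66 and 7.29 FPKM in control, 7.52 and 7.03 with alcohol, and 8.45 and 6.18 with co-treatment. The groups overlapped, and the log2 fold changes against control were -0.18 with alcohol (95% interval -0.61 to 0.24) and -0.17 with co-treatment (-0.59 to 0.26).

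MEST encodes a member of the alpha/beta hydrolase fold family and is a further imprinted gene of chromosome 7, at 130486175 to 130506465. It had 29.1 and 30.6 FPKM in control, 29.4 and 34.2 with alcohol, and 27.3 and 34.2 with co-treatment. The spread between its libraries was the smallest relative to level among the protein-coding members in control, with a mean of 29.8 ± 1.03 (SD, n = 2). The log2 fold change was 0.05 with alcohol (95% interval -0.25 to 0.35) and -0.01 with co-treatment (-0.31 to 0.29), both against control. These were the narrowest intervals of the 9 genes. MEST overlaps MESTIT1 and COPG2 on the opposite strand.

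The 3 remaining genes had the lowest mean FPKM of the members tested in every group. DLK1, a transmembrane ligand of the Notch family that holds back differentiation of precursor cells, had 1.47 and 0.97 FPKM in control, 1.64 and 1.18 with alcohol, and 2.42 and 0.84 with co-treatment. MEG3, the noncoding RNA expressed from the maternal copy of the same cluster on chromosome 14, had 1.17 and 1.26 in control, 0.86 and 1.48 with alcohol, and 1.33 and 1.14 with co-treatment. Expected counts were 20 to 56 for DLK1 and 42.6 to 71.4 for MEG3, which has a length of 9701 bases. Both genes overlapped between all groups. The 95% interval of the log2 fold change for alcohol against control ran from -0.81 to 1.14 for DLK1 and from -0.68 to 0.48 for MEG3.

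NNAT encodes neuronatin, a small membrane protein of the endoplasmic reticulum found in fetal brain and in endocrine cells, and lies within an intron of BLCAP on chromosome 20. It had 2.39 and 1.76 FPKM in control, 0.96 and 1.48 with alcohol, and 2.30 and 1.65 with co-treatment, from expected counts of 15 and 11, 6 and 9, and 14 and 11. The alcohol libraries were the lowest 2 of the 6. The log2 fold change was -0.81 for alcohol against control (95% interval -1.99 to 0.38, adjusted p = 0.651 by edgeR) and 0.73 for co-treated against alcohol (-0.46 to 1.92, adjusted p = 0.930). At 6 to 15 counts, a difference of this size was not detectable.

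Counted over the 8 members other than PEG10, edgeR called 0 in alcohol against control, where 0.0670% of all genes tested were called. It called 0 of 8 in co-treated against alcohol, where 0.0134% were called, and 0 of 8 in co-treated against control, where 0.362% were called. DESeq2 and limma also called 0 in each comparison. At an unadjusted p under 0.05 edgeR passed 0 of the 8 in alcohol against control, co-treated against control and co-treated against alcohol, where 11.0%, 12.6% and 5.55% of all genes passed. In alcohol against control, both libraries were higher than both for 1 of 9 members (PEG10, for which the rule used this contrast; all genes 24.7%) and lower than both for 2 of 9 (H19 and NNAT; all genes 17.7%). In co-treated against control, 1 of 9 was higher (PEG10, also without a test; all genes 27.1%) and 0 were lower (all genes 16.3%). In co-treated against alcohol, 1 of 9 was higher (NNAT; all genes 18.0%) and 0 were lower (all genes 14.3%). The median log2 fold change of the 9 was 0.03, 0.06 and -0.02 in alcohol against control, co-treated against alcohol and co-treated against control, beside medians within 0.01 of 0 over all genes tested. Alcohol against control and co-treated against control share the control libraries, so they are not independent of each other.

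**Figure D3:**
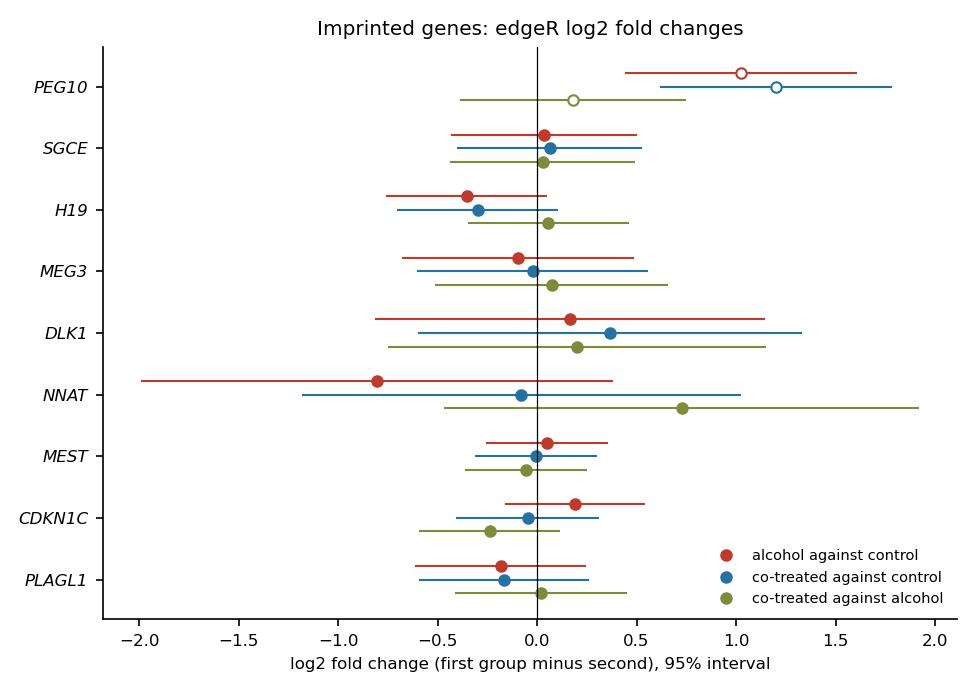
Log2 fold changes of the 9 imprinted genes from edgeR with 95% intervals, for alcohol against control, co-treated against control and co-treated against alcohol. The PEG10 points are open because its values chose the gene, and neither they nor their intervals carry a test. Every interval of the other 8 genes includes 0.

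The genes around PEG10 were then read in a window of 1000 kb on either side of its start, a window set after its values were seen. The annotation lists 44 genes there, of which 14 were in the table and 9 passed the filter, PEG10 among them. TFPI2, whose start lies 766 kb away, encodes a secreted inhibitor of serine proteases in the extracellular matrix and is imprinted in placenta. It had 15.1 and 11.5 FPKM in control, 27.3 and 28.4 with alcohol, and 38.3 and 36.1 with co-treatment. The 3 groups did not overlap, and control was the lowest.

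TFPI2 rose with alcohol by a log2 fold change of 1.03 (SE 0.15, adjusted p = 0.0309 by edgeR) and with co-treatment by 1.43 (SE 0.15, adjusted p = 0.00241), both against control. Co-treated against alcohol was 0.41 (SE 0.14, adjusted p = 0.836), not past the threshold. The rise of TFPI2 with alcohol was already known from these data when the window and the lists were set. Its adjusted p are therefore no independent evidence, and its calls are a description. The alcohol call was lost without control replicate 2 (adjusted p = 0.131), without alcohol replicate 2 (0.180) and without either co-treated library (replicate 1 0.123, replicate 2 0.113), where the log2 fold change was 0.84 to 1.04. It was also lost in the fit of those 2 groups alone (0.150), without the filter on low counts (0.0693) and with limma (0.363 and 0.452), and was kept by DESeq2 (0.000563). The co-treated call was lost without either co-treated library (replicate 1 0.0703, replicate 2 0.0688) and with limma (0.175 and 0.291), and was kept by DESeq2 (9.22e-09).

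Of the other neighbours, GNG11, which encodes a gamma subunit of G proteins, had 42.8 and 49.7 FPKM in control, 64.7 and 81.6 with alcohol, and 66.9 and 72.4 with co-treatment. CASD1, an enzyme that acetylates sialic acids and overlaps SGCE, had 13.3 and 13.5 FPKM in control, 16.0 and 20.7 with alcohol, and 18.4 and 22.7 with co-treatment. In both genes every treated library was above both control libraries. The log2 fold changes against control were 0.62 and 0.54 for GNG11 and 0.41 and 0.57 for CASD1, with adjusted p of 0.143, 0.127, 0.328 and 0.123, so neither was called. COL1A2, the alpha-2 chain of type I collagen and one of the fibroblast markers, gave 0.28 and 0.37 with adjusted p of 0.460 and 0.265. BET1, PPP1R9A and PON2 gave log2 fold changes between 0.06 and 0.34 against control in both comparisons.

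Leaving out PEG10, both alcohol libraries were above both control libraries for 5 of these 8 neighbours, beside 24.7% of all genes, and both co-treated libraries for 5 of 8, beside 27.1%. All 8 had a log2 fold change above 0 in each of the 2 comparisons with control, beside 49.4% and 49.8% of all genes. In co-treated against alcohol, 6 of 8 were above 0, beside 50.3%. At an unadjusted p under 0.05, 3 of 8 passed with alcohol, beside 11.0% of all genes, and 5 of 8 with co-treatment, beside 12.6%. SGCE, the nearest of them, had the smallest log2 fold change of the 8 in each comparison with control. Because the window was set after the values were seen and the comparisons share the control libraries, these counts are a description.

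**Figure D4:**
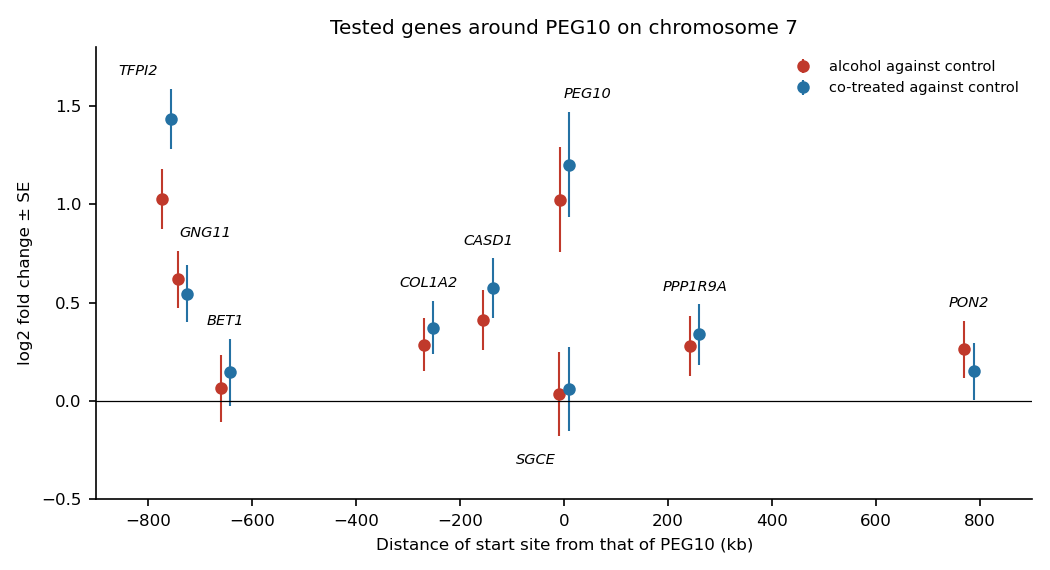
Log2 fold changes (± SE, edgeR) of the 9 tested genes within 1000 kb of the start of PEG10, against the distance of start sites in kb; red is alcohol against control and blue co-treated against control, drawn slightly apart sideways. TFPI2 and PEG10 lie above 1 in both comparisons and SGCE lies nearest to 0, at 0.03 and 0.06.

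A wider list of 64 further imprinted genes was read beside the members. For part of them, GNAS and WT1-AS among those named below, the expressed copy is mixed or debated. It matched 50 genes of the table, and 35 passed the filter. TFPI2, described above, was the 1 gene of 35 called in alcohol against control, where edgeR called 0.0670% of all genes. It was also the 1 gene called in co-treated against control, where 0.362% were called. In co-treated against alcohol edgeR called 0 of 35, as did DESeq2 and limma, beside 0.0134% of all genes by edgeR. At an unadjusted p under 0.05, 5 of 35 were higher and 2 lower with alcohol, beside 5.27% and 5.78% of all genes. With co-treatment 6 were higher and 1 lower than control, beside 6.26% and 6.37%, and 1 was higher and 0 lower than with alcohol, beside 2.84% and 2.71%. The median log2 fold changes were -0.04, -0.02 and 0.02 in alcohol against control, co-treated against control and co-treated against alcohol.

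DIRAS3, a small GTPase of the Ras family that restrains growth, had 1.40 and 1.51 FPKM in control, 2.90 and 3.40 with alcohol, and 3.61 and 3.52 with co-treatment. Its expected counts were 14 and 15 in control and 29 to 35 elsewhere. The log2 fold change against control was 1.07 with alcohol (95% interval 0.30 to 1.84, adjusted p = 0.273 by edgeR) and 1.24 with co-treatment (0.48 to 2.00, adjusted p = 0.145). Every treated library was above the control libraries, but neither value was called.

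SLC22A18, a membrane transporter of the CDKN1C cluster, had 3.21 and 3.41 FPKM in control, 6.29 and 6.01 with alcohol, and 5.72 and 3.29 with co-treatment. KCNQ1 of the same cluster, named here after its values were seen, encodes the pore of the slow delayed rectifier potassium channel of cardiomyocytes. It had 6.78 and 6.53 FPKM in control, 9.68 and 10.8 with alcohol, and 10.7 and 11.1 with co-treatment. The control libraries of KCNQ1 lay below the other 4, with log2 fold changes of 0.59 (adjusted p = 0.179 by edgeR) and 0.68 (adjusted p = 0.0924) against control. On this cluster CDKN1C itself did not pass and its groups overlapped.

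INPP5F, which encodes a phosphoinositide phosphatase, had 33.5 and 28.3 FPKM in control, 21.5 and 22.3 with alcohol, and 27.1 and 27.8 with co-treatment. The alcohol libraries were the lowest 2, at a log2 fold change of -0.47 (SE 0.13, adjusted p = 0.185 by edgeR). MAGEL2 and NDN, members of the MAGE family from the Prader-Willi region of chromosome 15, gave log2 fold changes of -0.52 and -0.11 with alcohol and -0.40 and -0.29 with co-treatment. SNRPN and SNURF of the same region gave 0.12 and 0.57 with alcohol and 0.04 and 0.71 with co-treatment. SNRPN and SNURF are read from the same message, so the division of reads between them is uncertain.

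GNAS, the alpha subunit of the stimulatory G protein, was the most abundant gene of the wider list in control, with 706 and 732 FPKM, followed by IGF2, SNRPN, NDN and SNURF. GNAS had 689 and 681 with alcohol and 647 and 662 with co-treatment, a log2 fold change of -0.10 and -0.19 against control. The other genes at the ends of the list were FAM50B, ZNF331, NPAP1, WT1-AS and MESTIT1, with log2 fold changes between -0.46 and 0.54 against control. None of these was called, and the lowest of their expected counts was 8.18.

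**Figure D5:**
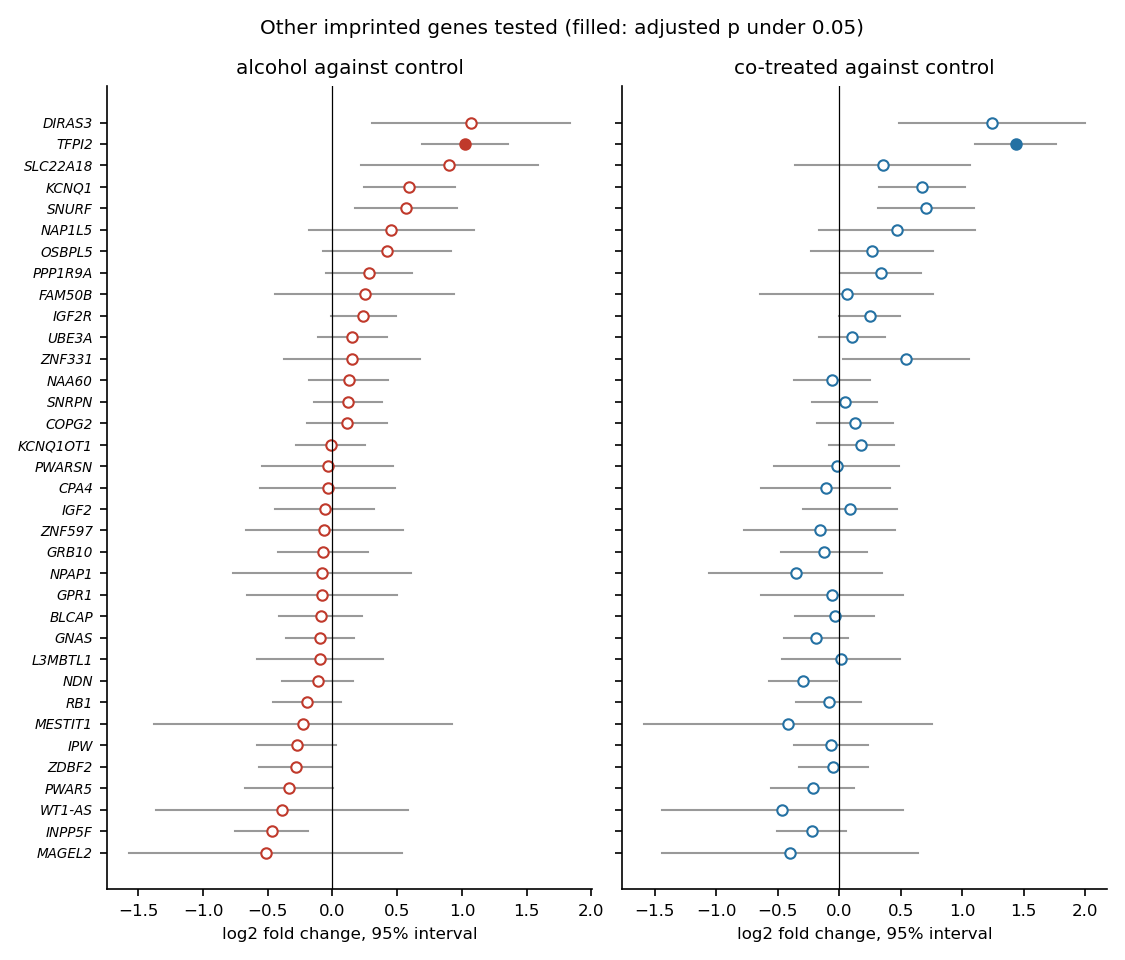
Log2 fold changes with 95% intervals (edgeR) of the 35 tested genes of the wider imprinted list, for alcohol against control on the left and co-treated against control on the right, ordered by the left panel. Filled points passed an adjusted p of 0.05; TFPI2 is the filled point in each panel.

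Other genes made from the same kind of retrotransposon as PEG10 were examined as a family. Of 14 genes, 13 were in the table and 10 passed the filter, and edgeR called 0 in each comparison, as did DESeq2 and limma. Over all genes edgeR called 0.0670% in alcohol against control, 0.362% in co-treated against control and 0.0134% in co-treated against alcohol. At an unadjusted p under 0.05, 1 of 10 was higher with alcohol, beside 5.27% of all genes. With co-treatment 2 were lower than control, beside 6.37%, and 1 was lower than with alcohol, beside 2.71%. RTL8C, the most abundant, had 147 and 153 FPKM in control, 165 and 149 with alcohol, and 142 and 127 with co-treatment. RTL8C and RTL8B are near-identical copies, so the division of reads between them is uncertain. PNMA1, a neuronal gag-like protein, had log2 fold changes of -0.14 with alcohol and -0.37 with co-treatment (adjusted p = 0.206 by edgeR), and RTL8B had -0.16 and -0.26. RTL9 and PNMA2 had the largest absolute values with alcohol, 0.62 and -0.45, at 0.54 to 2.57 FPKM. The medians over the family were 0.08 with alcohol and -0.01 with co-treatment.

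SGCE was set beside the other sarcoglycans and the dystrophin complex, which links the cytoskeleton of muscle cells to the matrix. Of 14 genes, 13 were in the table and 11 passed, with 0 called by edgeR, DESeq2 or limma in any comparison. The share of all genes that edgeR called was 0.0670% in alcohol against control, 0.362% in co-treated against control and 0.0134% in co-treated against alcohol. SGCA, the alpha-sarcoglycan of striated muscle, was the 1 gene of 11 at an unadjusted p under 0.05 with alcohol and with co-treatment, a share near the 11.0% and 12.6% of all genes. It had 28.5 and 31.7 FPKM in control, 39.4 and 43.7 with alcohol, and 42.4 and 34.7 with co-treatment, a log2 fold change of 0.48 (adjusted p = 0.244) and 0.39 (adjusted p = 0.292). Dystrophin itself (DMD) and the laminin chain LAMA2, both among the most abundant of the list, gave log2 fold changes of 0.09 and 0.20 with alcohol.

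The factors that act on imprints include the methyltransferase DNMT1 and the corepressor TRIM28, which keep them through cell division, and the TET enzymes, which oxidise methylated DNA and so act the other way. Of 17 genes of both kinds, 16 were in the table and 14 passed, and edgeR, DESeq2 and limma called 0 in each comparison. Beside this, edgeR called 0.0670% of all genes in alcohol against control, 0.362% in co-treated against control and 0.0134% in co-treated against alcohol. At an unadjusted p under 0.05, 3 of 14 were lower and 0 higher with alcohol, beside 5.78% and 5.27% of all genes. With co-treatment 2 were higher and 2 lower than control, beside 6.26% and 6.37%, and 3 were higher and 0 lower than with alcohol, beside 2.84% and 2.71%. TET1, named here after its values were seen, was among the higher genes in both comparisons of the co-treated libraries, with log2 fold changes of 0.40 against control and 0.53 against alcohol, neither of them called. DNMT1 had 18.4 and 21.7 FPKM in control, 14.9 and 14.7 with alcohol, and 16.0 and 15.5 with co-treatment. Every treated library of DNMT1 was below both control libraries, with log2 fold changes of -0.47 (SE 0.12, adjusted p = 0.170 by edgeR) and -0.39 (adjusted p = 0.200). HELLS, a chromatin remodeller needed for DNA methylation, was at -0.61 with alcohol and 0.12 with co-treatment against control, and TRIM28 at -0.17 and -0.37. DNMT3A gave 0.07 and -0.16, and the zinc finger protein ZFP57, which binds methylated imprints, was at 4 to 13 counts.

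The genes whose libraries followed PEG10 most closely were found by the Pearson r of log2 CPM over the 6 libraries. They were ARHGAP31, MOK, TMED8, RNF13, S100A13, EPB41L3, KCTD12, LINC01003, TENM1 and SYNE2, with r from 0.985 to 0.993. S100A13, a small calcium-binding protein, had 78.3 and 87.6 FPKM in control, 92.3 and 115 with alcohol, and 102 and 109 with co-treatment. KCTD12, an auxiliary subunit of GABA-B receptors, had 9.84 and 13.3, 14.6 and 28.9, and 20.4 and 22.2. Both share with PEG10 the lowest value in control replicate 1 and the highest in alcohol replicate 2. This follows from their choice by r with PEG10, whose own values chose it, and carries no test. The 10 genes were the closest among 14926 over only 6 libraries, so r of this size is no evidence of a link. No member of the imprinted list was among these 10 genes. With so few places among so many genes, that absence says little about the members. Over the 36 pairs of members r ran from -0.93 to 0.81 with a median near 0, over 6 libraries that share their treatment groups.

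Markers of other cell types were read in the same libraries. The summed FPKM of 6 smooth muscle markers, none of them at 0, was 1724 to 1965 in control, 751 to 1491 with alcohol and 1027 to 1069 with co-treatment. It was lowest in alcohol replicate 2, where PEG10 was highest, and highest in control replicate 1, where PEG10 was lowest. ACTA2, the smooth muscle actin, fell in co-treated against control by 1.25 on the log2 scale (adjusted p = 0.0203 by edgeR). The 10 fibroblast markers summed to 443 to 484 in control, 502 to 531 with alcohol and 481 to 536 with co-treatment, and none was at 0. Most of this sum came from COL1A1, COL1A2 and COL3A1. Of the 9 tested, 5 had a log2 fold change above 0 with alcohol and 4 below. With co-treatment 6 were above 0 and 3 below, against control. The 8 endoderm and liver markers summed to 38.9 to 40.5, 51.9 to 52.0 and 49.7 to 50.7, with FOXA2 or SOX17 at 0 in 5 libraries. AFP and APOA1 made up most of that. Of the 5 tested, 4 had a log2 fold change above 0 and 1 below in each comparison with control. The 5 endothelial markers summed to 5.88 to 6.86, 7.43 to 8.53 and 8.90 to 10.5, with VWF at 0 in co-treated replicate 1. Most of this sum came from KDR, with group means of 3.85, 5.855 and 7.185 FPKM. Of the 4 tested, 2 had a log2 fold change above 0 with alcohol and 2 below. With co-treatment 3 were above 0 and 1 below, against control. The 7 neural markers in the table summed to 7.56 to 10.5 over all libraries, with ELAVL4, NEUROD1 or SYP at 0 in each, and the 6 pluripotency markers to 10.9 to 19.7, with SOX2 at 0 in 2 libraries. The part of any of these in the values of PEG10, TFPI2 or the other genes above was not tested.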

How the data were processed

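Per library (n = 6) the authors deposited expected counts, FPKM values and mean transcript lengths of genes, and a series-wide table repeats the FPKM with gene symbols. The expected counts deposited by the authors are estimates, of which 33.6 to 34.2% per library are not whole. The deposited FPKM is scaled by length and library by the authors. The submitters' processing notes name HISAT2 2.0.4, Bowtie2 2.2.5, RSEM 1.2.12 and hg38, without their roles.

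Genes with no row in a library were set to 0. Expected counts were rounded and tested with edgeR 4.0.16 (R 4.3.3): TMM, filterByExpr, quasi-likelihood F test, two-sided, all 6 libraries in 1 fit, Benjamini-Hochberg adjustment over 14926 genes at 0.05. Intervals are 95%. DESeq2 1.42.0 and limma 3.58.1, on log2(FPKM + 1) and log2(FPKM + 0.1), were alternatives, with other size factors, other filters, the replicate number as a block, the compared groups alone, and each library left out. Tested on simulated data for alcohol against control (14825 genes), edgeR recovered 74% of 100 genes changed by 1 in log2 and 100% of 100 changed by 2, with 8 false calls. The simulation gave every gene the same relative spread and changed no gene of low mean count. These shares therefore do not apply to genes of low count, such as NNAT, or of wide spread, such as PEG10.

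Members and lists were chosen with earlier results of these data known. Named in the text are the members, every called gene of a list, the most abundant genes of each list and those with the largest changes. For the wider imprinted list these are the 5 most abundant in control and, per comparison, the 3 highest and 3 lowest log2 fold changes. For the other lists they are the 3 most abundant and the 2 largest absolute values with alcohol. For 1 gene that this rule names, the result is not reported here. Genes like PEG10 are the 10 of highest r. KCNQ1, KCNQ1OT1, TET1, ACTA2 and the other cell type markers named, and the neighbours of PEG10 other than TFPI2 and SGCE, lay outside this rule. Positions are from RefSeq on GRCh38.p14. Overlapping genes and near-identical copies may share reads.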

Additional observations from a re-analysis of the deposited data

How the results depend on the processing

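The number of genes called moved with the processing, and the cause was not tested. In alcohol against control edgeR called 10 genes. DESeq2 called 74, limma 0 and 0 (pseudocounts 1 and 0.1), no filter 2, a minimum of 10 counts 26 and the 2 groups alone 3, and leaving out a library gave 1 to 220. In co-treated against alcohol (2 called) these gave 5, 1 and 1, 1, 0, 4 and 1 to 24. In co-treated against control (54 called) DESeq2 gave 116, limma 1 and 1, no filter 15, the 2 groups alone 158, and leaving out a library 2 to 184. Of the members, 0 were called in co-treated against control, and 1 (PEG10, whose values chose it) with the 2 groups alone, with a range of 0 to 1 without a library. Of the wider imprinted list, 1 was called in each comparison with control. That became 0 with limma in both, 0 without the filter and 0 with the 2 groups alone in alcohol against control, and 0 to 1 without a library in both.

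The labels do not say what a replicate number marks. Deviations from group means correlated at 0.11 between control and alcohol, -0.02 between control and co-treated and 0.04 between alcohol and co-treated. This did not show a pairing of libraries by replicate number, but it cannot exclude such a pairing. With the replicate number as a block the calls were 48, 5 and 136. In each comparison with control 1 member was then called (PEG10, whose values chose it), and 0 in co-treated against alcohol.

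No sign changed at an adjusted p under 0.05. On limma's scale, MEG3 in co-treated against control was at 0.012 and 0.019, MEST at 0.035 and 0.036, and PLAGL1 in co-treated against alcohol at -0.0060 and -0.0085. Leaving out a library gave these ranges in log2 fold change. In alcohol against control they were -0.18 to 0.23 for SGCE, -0.48 to 0.22 for MEG3, -0.13 to 0.53 for DLK1, -0.016 to 0.12 for MEST and -0.32 to 0.0011 for PLAGL1. In co-treated against alcohol they were -0.25 to 0.78 for PEG10, -0.21 to 0.24 for SGCE, -0.29 to 0.33 for H19, -0.24 to 0.46 for MEG3, -0.73 to 0.76 for DLK1, -0.25 to 0.11 for MEST and -0.19 to 0.20 for PLAGL1. In co-treated against control they were -0.17 to 0.26 for SGCE, -0.13 to 0.074 for MEG3, -0.56 to 0.93 for DLK1, -0.29 to 0.17 for NNAT, -0.20 to 0.16 for MEST, -0.23 to 0.11 for CDKN1C and -0.38 to 0.02 for PLAGL1. Where a group was left with 1 library, that library was assumed to vary like the others. NNAT could not be given at a minimum of 10 counts. With 2 libraries per group and at most 15 counts for NNAT, small differences in the low genes were not detectable.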
